A study of Rattus norvegicus with 4 samples.

Results

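The 4 genes Slc12a2, Slc12a5, Stk39 and Oxsr1, which set and control chloride in neurons, were followed in the hippocampus of newborn rats exposed to bisphenol A (BPA) before birth. They were chosen by name for their roles in chloride transport, with earlier results of these data already known. They make up 4 of the 17445 rows in the deposited tables. Each was listed under a gene ID in all 4 libraries and passed the filter on low values, a mean of at least 1 FPKM (fragments scaled to the length of the transcript and the size of the library). BPA is a plasticizer and a known endocrine disruptor. Wistar dams received BPA at 5000 µg per kg body weight, or the vehicle, every day from gestation day 1 until they gave birth. The vehicle, ethanol in corn oil given into the stomach, was shared by all dams. The pups, taken on postnatal day 1, formed 4 groups: control males, BPA males, control females and BPA females. Each group was 1 RNA-seq library, so there was no replicate within a sex and treatment, and the spread between pups could not be measured. The design text of the series speaks of 3 pooled hippocampi for each treatment, while the study describes replicate pups from independent litters, so how many pups stand behind a library is not settled.

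NKCC1, the product of Slc12a2, brings chloride into the cell together with sodium and potassium. KCC2, the product of Slc12a5, is a neuron-specific cotransporter that uses the outward potassium gradient to remove chloride. In the developing hippocampus KCC2 rises as neurons mature, chloride inside the cell falls, and the response to the transmitter GABA turns from depolarizing to inhibitory. SPAK, encoded by Stk39, and OSR1, encoded by Oxsr1, are related kinases that are switched on by the WNK kinases. They phosphorylate both transporters, which activates NKCC1 and restrains KCC2. All values here are RNA levels, and phosphorylation or transport was not measured.

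The tested tables held 13542 rows with a mean of at least 1 FPKM. Read depth, estimated from the steps between low values, was 8650000 to 8880000 fragments per library. The limma test of the 2 BPA against the 2 control libraries, with the sexes combined, found 0 rows (0%) past the threshold of 0.05 on the adjusted p. By the unadjusted p, 421 rows (3.11%) were lower and 216 rows (1.60%) were higher with BPA at the same threshold. Of the 10857 tested rows that carry a gene ID, as the 4 genes do, 2.74% were lower and 1.11% were higher. The median difference over all tested rows was -0.0019 in males and -0.038 in females on the log2(FPKM + 1) scale. Counting intervals given below are 95% intervals on the estimated fragments and cover counting error only, not differences between pups. They are exact, except for changes in the Slc12a2 to Slc12a5 and Stk39 to Oxsr1 ratios, where they are symmetric approximations on the log2 scale.

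Slc12a5 had the lowest unadjusted p of the 4 genes. Its level was 22.0 FPKM in the male control, 18.1 in the male BPA, 20.6 in the female control and 14.4 in the female BPA library. Both BPA libraries lay below both controls, as in 19.9% of all tested rows and 20.2% of those with a gene ID. The female BPA library was the lowest. The change with BPA was -17.9% in males (counting interval -24.9 to -10.3%) and -30.2% in females (counting interval -36.7 to -23.1%). Behind these values stood an estimated 1106, 905, 1012 and 714 fragments in the same order. Combined over the sexes, the difference was -0.38 on the log2(FPKM + 1) scale with an SE of 0.140, an unadjusted p of 0.0314 and an adjusted p of 0.973 by limma, so the gene did not pass the test. Without the female BPA library the difference was -0.23. With sex as a replicate block the unadjusted p was 0.00687 and the adjusted p was 0.404. KCC2 RNA is made by neurons, and in whole tissue fewer cells of a type and less RNA per cell cannot be told apart.

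The window just before the start of Slc12a5 is shown because KCC2 is known for control at the level of transcription. The 250 bases before its start site are at chr3:174115583-174115832 on the plus strand of the RefSeq assembly GRCr8, which is not the build used for the deposited values. The capitals mark a GC box, GGGCGG, searched on both strands.
Slc12a5: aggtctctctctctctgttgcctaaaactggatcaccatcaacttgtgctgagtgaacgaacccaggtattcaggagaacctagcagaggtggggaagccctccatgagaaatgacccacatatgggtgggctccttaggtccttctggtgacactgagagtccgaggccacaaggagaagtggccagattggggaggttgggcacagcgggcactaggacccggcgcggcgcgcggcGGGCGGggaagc
The box lies 12 to 7 bases before the start. This motif was present in 30.5% of 33465 rat promoter windows of the same length. The window of Slc12a2 held 3 copies, that of Stk39 held 1 and that of Oxsr1 held 0. An early growth response motif, GCGGGGGCG or GCGTGGGCG, was in 2.45% and 0.478% of all windows and in none of the 4 genes. CACGTG, an E-box bound by USF proteins, was in 5.59% of all windows and likewise in none of the 4. These matches describe the letters only. The Slc12a5 window held 11 CpG dinucleotides, against 48 for Slc12a2, 15 for Stk39, 20 for Oxsr1 and a median of 5 over all windows.

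Slc12a2 stood in the other direction. Its level was 10.6 FPKM in the male control, 11.4 in the male BPA, 10.7 in the female control and 12.6 in the female BPA library. Both BPA libraries lay above both controls, a pattern seen in 13.8% of all tested rows and 13.3% of those with a gene ID. The change was 7.54% in males, with a counting interval from -3.52 to 19.9% that includes 0. In females it was 17.5%, with a counting interval of 5.60 to 30.8%. The combined limma difference was 0.16 on the log2(FPKM + 1) scale (SE 0.126, adjusted p 0.973) and did not pass the test. Without the female BPA library it was 0.091.

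**Figure D1:**
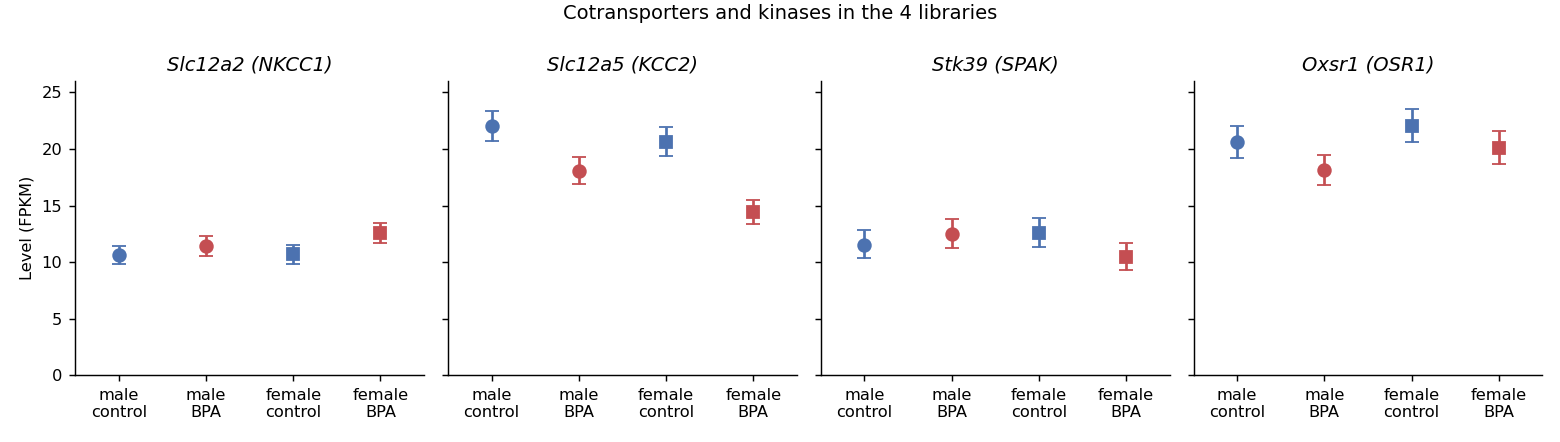
Level in FPKM of the cotransporter genes Slc12a2 and Slc12a5 and the kinase genes Stk39 and Oxsr1 in each of the 4 libraries (circles male, squares female, blue control, red BPA). Bars are 95% counting intervals from estimated fragments; the points of Slc12a5 run from 14.4 in the female BPA library to 22.0 in the male control.

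The balance of import and export genes was taken as the ratio of Slc12a2 to Slc12a5 FPKM. It was 0.482 in the male control, 0.631 in the male BPA, 0.518 in the female control and 0.872 in the female BPA library. The level of Slc12a5 exceeded that of Slc12a2 in every library, since the highest counting interval, in the female BPA library, ran from 0.786 to 0.967. Both BPA libraries had a higher ratio than both controls. The ratio was 1.31-fold higher with BPA in males (counting interval 1.14 to 1.51) and 1.68-fold higher in females (counting interval 1.46 to 1.94). Over the sexes the log2 ratio was higher by 0.571, or 1.49-fold. An exact two-sided permutation test of the 2 BPA against the 2 control libraries gave p = 0.333, the smallest that 6 arrangements allow, so the design could not reach the threshold. Without the female BPA library the log2 difference was 0.338, and without the male BPA library it was 0.804. The female log2 change exceeded the male one by 0.362, with a counting interval of 0.0752 to 0.649. There was 1 library per sex and treatment, and the difference between sexes was not tested over pups.

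**Figure D2:**
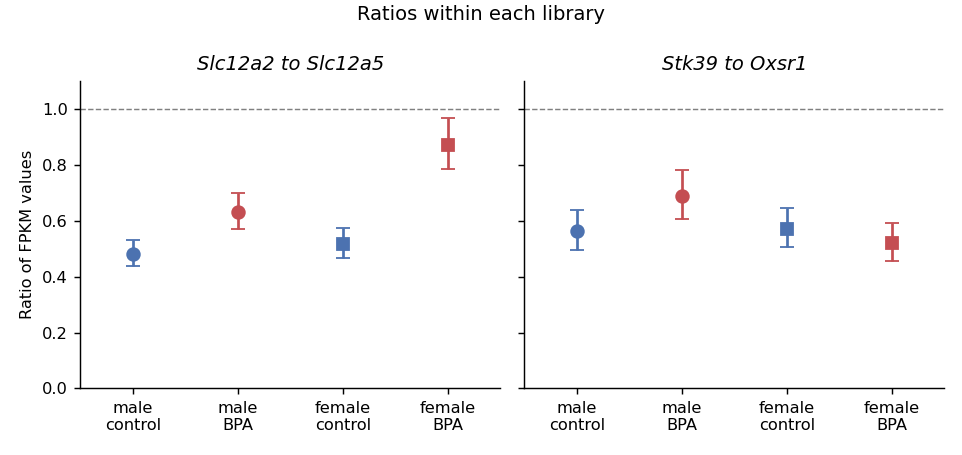
Ratio of FPKM values in each library, Slc12a2 to Slc12a5 and Stk39 to Oxsr1, with 95% counting intervals as bars. The cotransporter ratio is 0.482 and 0.518 in the controls against 0.631 and 0.872 with BPA, while the kinase ratio of the female BPA library, 0.520, is the lowest of the 4.

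The kinase genes gave smaller differences than Slc12a5 in the combined fit. Stk39 was at 11.6 FPKM in the male control, 12.5 in the male BPA, 12.6 in the female control and 10.4 in the female BPA library. The BPA and control libraries overlapped, the male BPA library being above its control and the female one below. The change was 8.13% in males (counting interval -6.62 to 25.2%) and -17.1% in females (counting interval -28.8 to -3.59%). The combined limma difference was -0.073 on the log2(FPKM + 1) scale (SE 0.141, adjusted p 0.988), and it was 0.047 without the female BPA library. Whether the sexes differed in this change could not be tested, since the 4 libraries leave no residual degrees of freedom for an interaction.

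Oxsr1 was at 20.6 FPKM in the male control, 18.1 in the male BPA, 22.0 in the female control and 20.1 in the female BPA library. Both BPA libraries lay below both controls, as in 20.2% of tested rows with a gene ID, and the female BPA library was only just below the male control. The change was -11.9% in males (counting interval -20.4 to -2.47%) and -8.81% in females (counting interval -17.3 to 0.601%). The combined limma difference was -0.15 on the log2(FPKM + 1) scale (SE 0.117, adjusted p 0.973) and did not pass the test. Without the male BPA library it was -0.080.

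The ratio of Stk39 to Oxsr1 was 0.562 in the male control, 0.689 in the male BPA, 0.572 in the female control and 0.520 in the female BPA library. Its log2 change with BPA was 0.296 in males (counting interval 0.0423 to 0.549) and -0.138 in females (counting interval -0.395 to 0.118). The combined log2 difference of 0.0787 gave an exact two-sided permutation p of 1, and without the male BPA library it was -0.125.

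None of the 4 genes differed by 1 or more on the log2(FPKM + 1) scale in either sex, a size reached by 1.70% of tested rows in males and 2.17% in females, or 0.267% and 0.645% of those with a gene ID. A difference of -0.3 or below was seen only for Slc12a5 in females, at -0.49, where 17.0% of tested rows, and 14.9% of those with a gene ID, were at -0.3 or below. In males 9.61% of rows, and 7.20% of those with a gene ID, were at -0.3 or below, and the value of Slc12a5 was -0.27. None of the 4 genes reached 0.3 in either sex, against 8.84% of all tested rows in males and 8.15% in females, or 6.16% and 5.68% of those with a gene ID. These are sizes in single libraries, with no test.

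**Figure D3:**
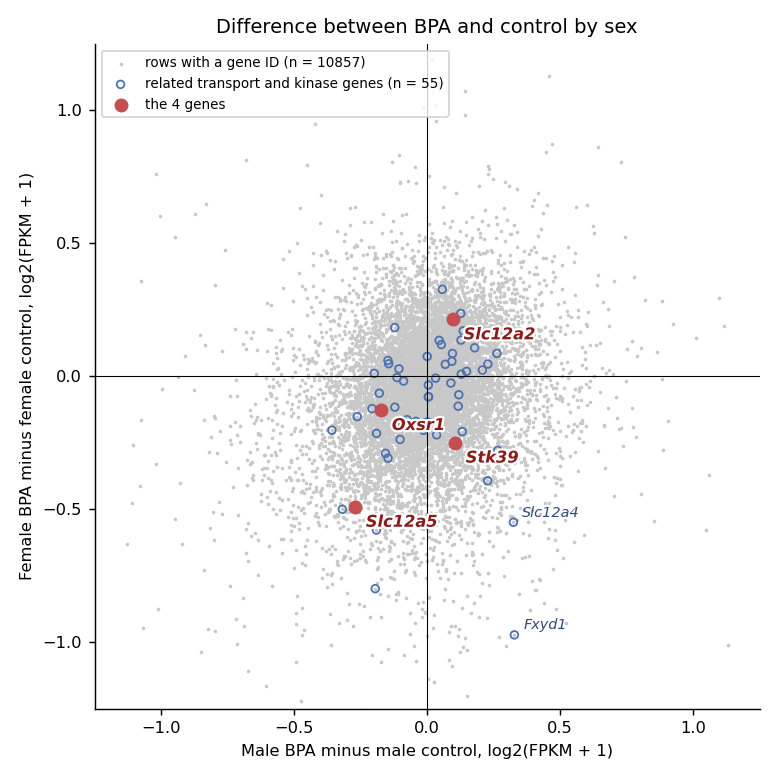
Difference between BPA and control on the log2(FPKM + 1) scale in males (horizontal) and females (vertical) for 10857 tested rows with a gene ID, with 55 related genes and the 4 cotransporter and kinase genes marked; 50 rows lie outside the axes. Slc12a5 is at -0.27 and -0.49, Slc12a2 at 0.096 and 0.21, and Stk39 is higher in males and lower in females.

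Between the sexes, none of the 4 genes passed the limma test. The female minus male difference over both treatments was -0.20 for Slc12a5 (SE 0.181, adjusted p 0.744), 0.12 for Oxsr1 (SE 0.110, adjusted p 0.754), 0.069 for Slc12a2 (SE 0.131, adjusted p 0.890) and -0.062 for Stk39 (SE 0.135, adjusted p 0.902). In that contrast 1 row of 13542 (0.00738%) passed, or 0.00921% of those with a gene ID. The Slc12a5 difference was -0.089 between the control libraries and -0.31 between the BPA libraries. Counting intervals, which belong to the log2 ratio of the FPKM values themselves, were -0.218 to 0.0309 for the controls and -0.471 to -0.184 for BPA. Without the female BPA library the limma difference was 0.047 for Slc12a5, 0.063 for Stk39 and -0.038 for Slc12a2, so the sign of these 3 rested on that library.

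FPKM is a level per length, so the 4 genes can be placed in order within a library. In the male control the order from high to low was Slc12a5, Oxsr1, Stk39 and Slc12a2. Slc12a5 and Oxsr1 were not distinguishable there within counting error, with a ratio of 1.07 and a counting interval of 0.976 to 1.17. They were also not distinguishable in the male BPA and the female control library. In the female BPA library Oxsr1 was 1.40-fold above Slc12a5 (counting interval 1.26 to 1.55), Slc12a5 was 1.15-fold above Slc12a2 (1.03 to 1.27), and Slc12a2 was 1.20-fold above Stk39 (1.05 to 1.38). Slc12a2 had the lowest value of the 4 in the other 3 libraries, where it was not distinguishable from Stk39 in either male library. Of the listed rows with a gene ID, 72.4% were below Slc12a5 in the male control and 62.8% in the female BPA library. Slc12a2 was above 54.2% of such rows in both controls, 55.7% in the male BPA and 59.4% in the female BPA library.

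The relatives of these transporters gave no shared direction. Of 7 other SLC12 genes, 6 were listed and 4 had a mean of at least 1 FPKM. None of the 4 had an unadjusted p under 0.05. None had both BPA libraries above both controls or both below, against 13.3% and 20.2% of rows with a gene ID. Their median difference was 0.062 in males and -0.12 in females on the log2(FPKM + 1) scale. Slc12a4, encoding KCC1, had 4.64, 6.06, 5.83 and 3.67 FPKM, given here and in the following lists for control males, BPA males, control females and BPA females, the female BPA library being the lowest. Slc12a7, encoding KCC4, was at 4.91, 4.43, 4.01 and 4.69 FPKM.

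Genes of the WNK pathway act upstream of SPAK and OSR1. Of 12, 10 were listed and 9 had a mean of at least 1 FPKM; none of the 9 had an unadjusted p under 0.05. Wnk1 was at 11.3, 10.5, 11.9 and 9.97 FPKM. It was the one gene of the list with both BPA libraries below both controls, against 20.2% of rows with a gene ID. Cab39, whose product MO25 is a scaffold that activates SPAK and OSR1, was at 50.7, 52.8, 48.0 and 60.5 FPKM. Ppp1cc, a catalytic subunit of protein phosphatase 1, was at 97.4, 106.4, 94.7 and 111.8 FPKM. Cab39 and Ppp1cc had both BPA libraries above both controls, against 13.3% of rows with a gene ID. The list median was 0.045 in males and 0.075 in females.

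Of 18 genes listed as KCC2 partners and regulators, all 18 were found and 16 had a mean of at least 1 FPKM. Both BPA libraries were below both controls for 5 of the 16 and above for 2, against 20.2% and 13.3% of all tested rows with a gene ID. One of the 16, Prkca, was lower at an unadjusted p of 0.0264. Prkca encodes a protein kinase C, an enzyme family that phosphorylates KCC2, and was at 17.1, 14.9, 19.6 and 12.8 FPKM. Its combined limma difference was -0.38 with an SE of 0.135 and an adjusted p of 0.973. Ntrk2, the gene of the BDNF receptor TrkB, was at 58.8, 54.0, 59.2 and 54.5 FPKM, and Bdnf itself was at 1.86, 2.05, 1.74 and 1.85 FPKM. Neto2, which encodes an auxiliary protein that binds KCC2, was at 49.4, 44.5, 53.9 and 55.7 FPKM. The list median was -0.059 in males and -0.0055 in females.

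Of 21 other chloride and bicarbonate transport genes, 17 had a mean of at least 1 FPKM, with both BPA libraries above both controls for 2 and below for 3, against 13.3% and 20.2% of rows with a gene ID. Slc4a4, a sodium bicarbonate cotransporter found in astrocytes, was lower at an unadjusted p of 0.0241, with 11.5, 9.01, 13.8 and 9.46 FPKM and a limma difference of -0.41 (SE 0.141, adjusted p 0.973). Slc4a10, a sodium-dependent bicarbonate transporter of neurons, was at 15.0, 11.5, 16.4 and 14.2 FPKM, again lower in both BPA libraries. The volume-regulated chloride channel subunit Lrrc8a was at 26.6, 26.7, 24.2 and 23.6 FPKM. The list median was 0.095 in males and -0.11 in females.

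The sodium potassium ATPase maintains the ion gradients that drive both cotransporters. All 9 of its listed genes had a mean of at least 1 FPKM, and 4 of the 9 had both BPA libraries below both controls, against 20.2% of rows with a gene ID. None had both above, against 13.3%. Atp1b1, a beta subunit, was at 241.9, 209.3, 242.4 and 222.8 FPKM, with both BPA libraries below both controls. Atp1b2, another beta subunit, was at 77.3, 69.7, 73.4 and 59.2 FPKM, the female BPA library being the lowest. The list median was -0.15 in males and -0.18 in females.

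**Figure D4:**
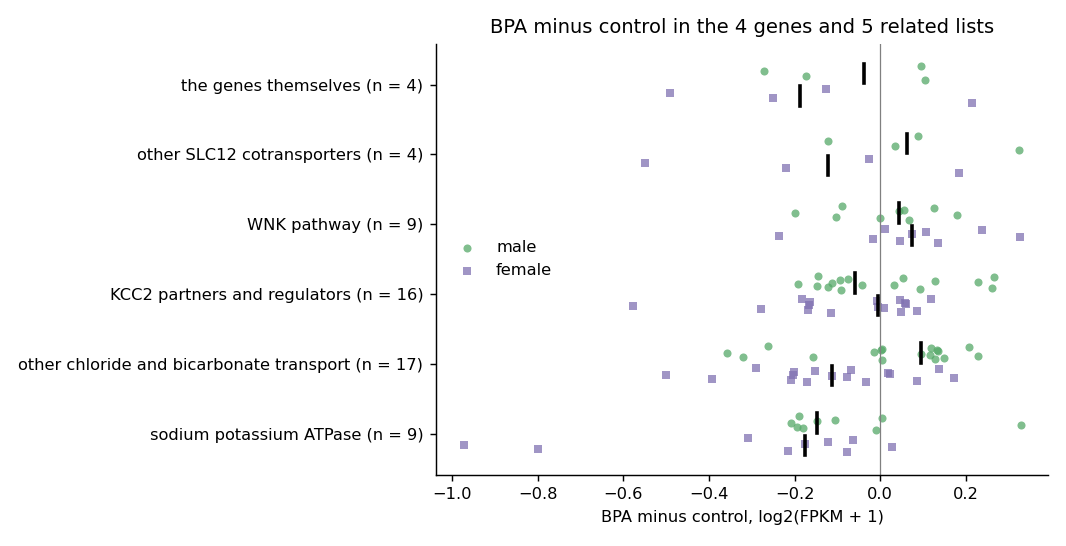
Difference between BPA and control on the log2(FPKM + 1) scale for the 4 cotransporter and kinase genes and the genes of 5 related lists, with n the genes at a mean of at least 1 FPKM (green circles male, violet squares female, black bars the medians). The sodium potassium ATPase genes have medians of -0.15 and -0.18, and the other SLC12 list and the chloride and bicarbonate list have medians above 0 in males and below 0 in females.

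Markers of cell types are given beside these values. None of their genes passed the limma test, the lists were not tested as sets, and 20.2% of rows with a gene ID had both BPA libraries below both controls. Of 10 radial glia and astrocyte genes, 7 had this order, and their summed level was 1369 and 1365 FPKM in the controls against 1223 and 1248 with BPA. Of 10 maturing neuron genes, 9 were lower with BPA in males and 7 in females, with changes in the summed level of -9.82% and -3.70%. Per summed level of that list, Slc12a5 changed by -9.00% in males and -27.6% in females, values that depend on the genes summed. Of the 3 genes higher in females, Nefm rose the most, by 28.2%, and in males it changed by -15.9%. Among the 10 genes, Nefl, a neurofilament gene, had a more negative change than Slc12a5 in males and no gene did in females. Rbfox3, the gene of the neuronal marker NeuN, changed by 6.08% in males and -0.545% in females. Of 8 immature neuron genes, 8 were higher with BPA in males and 6 in females. Their sums were 3663 and 3882 FPKM in the male control and BPA libraries and 3576 and 4458 in the female ones. Beside these direction counts, all tested rows with a gene ID had a median difference of -0.0041 in males and -0.038 in females. Lower values were thus at least as common as higher ones in both sexes. The part of these marker values in the Slc12a5 values was not tested.

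Slc12a2 is also expressed outside neurons, among others in the choroid plexus and the oligodendrocyte lineage. The summed level of 10 choroid plexus genes was 277.6 FPKM in the male control, 720.0 in the male BPA, 20.1 in the female control and 53.7 in the female BPA library, and most of it was Ttr in all libraries but the female control. Without Ttr the sums were 21.1, 30.5, 16.2 and 11.3 FPKM. Of 8 oligodendrocyte lineage genes, 2 had both BPA libraries below both controls, against 20.2% of rows with a gene ID, and none had both above, with sums of 144.5, 111.4, 119.0 and 99.4 FPKM. Meningeal genes summed to 54.8, 46.2, 130.4 and 50.0 FPKM. The hippocampal markers were present, with sums over the 8 listed genes from 297 to 353 FPKM. The part of differing dissection or cell makeup in the values of the 4 genes was not tested.

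**Figure D5:**
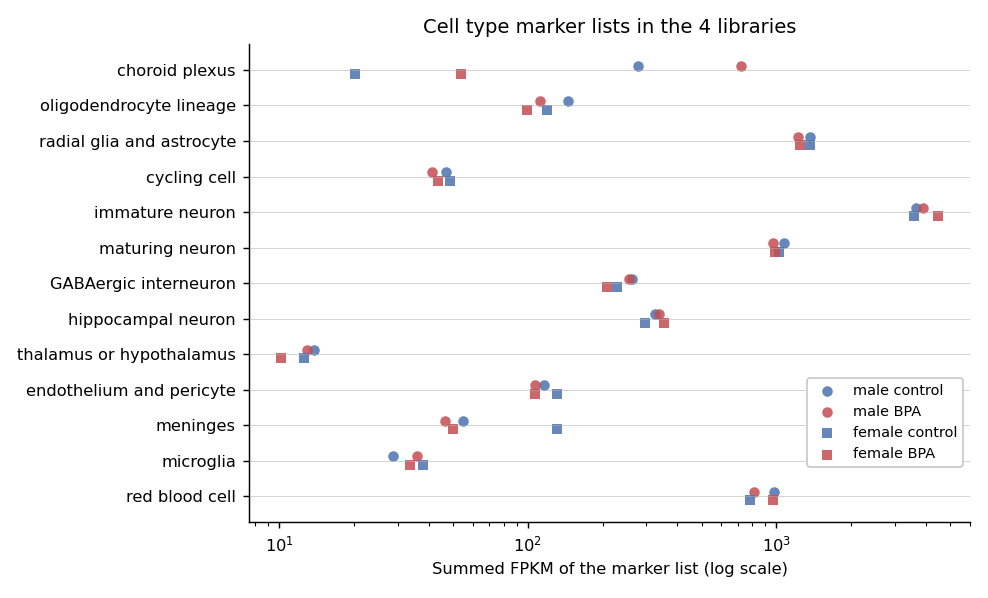
Summed FPKM of the marker lists in each library on a log axis. The choroid plexus list spreads the widest, from 20.1 in the female control to 720.0 in the male BPA library. The radial glia and astrocyte sum runs from 1223 to 1369, of which Fabp7 alone makes up 792 to 884.

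The rows with the most similar pattern to each gene were sought among 8354 rows with a gene ID and a mean of at least 5 FPKM, by the distance between centred log2(FPKM + 1) values over the 4 libraries. For Slc12a5 the nearest was Fmnl1, a formin-like actin regulator, at 8.43, 6.89, 7.99 and 5.32 FPKM, followed by Fads3 and LOC498368. For Slc12a2 they included Pogk and Ufc1. For Stk39 they were Serinc5, Pomk and Ints4, and for Oxsr1 they were Ilkap, Cfdp1 and Gkap1. With only 4 libraries such likeness is common. A correlation of at least 0.95 with Slc12a5 was shown by 338 rows (4.05%), and with Slc12a2 by 234 (2.80%), with Oxsr1 by 197 (2.36%) and with Stk39 by 154 (1.84%). The rows share the same 4 libraries and no test was made.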

How the data were processed

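RNA-seq was made from hippocampi, 1 library per sex and treatment as the labels give them. The design text of the series states that 3 hippocampi were pooled for each treatment, and the study describes replicate pups instead. The deposited values are FPKM per gene and library, written by the authors to 2 decimals with a lowest value of 0.01. The submitters' processing notes name HISAT 0.1.6, Bowtie2 2.2.5, RSEM and the rn6 build. No counts were used: fragments were estimated from the steps between low values (96.5 to 99.2% of low values lay within 0.15 of a whole number, against 30% for an even spread).

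Rows present in all 4 libraries with a mean of at least 1 FPKM were tested on log2(FPKM + 1) with limma 3.58.1 (R 4.3.3, trend on, Benjamini-Hochberg over 13542 rows), 2 BPA against 2 control libraries and 2 female against 2 male. The library is the unit, so p-values measure the spread between libraries, sex included. Within a sex there was no test: differences carry exact counting intervals (scipy 1.17.1), and changes in a ratio of genes carry approximate ones. The script was tested on simulated data. Ratios were tested by exact permutation. Alternatives were a pseudocount of 0.1, a filter at 5 FPKM or none, quantile scaling, summing new gene models with the gene whose protein they match, sex as a block, and leaving out each library.

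Named genes are the 4 cotransporter and kinase genes, genes of 5 related lists and of 13 marker lists, and the 3 nearest rows to each gene. Members and lists were chosen with earlier results of these data known. All 4 symbols matched RefSeq (GRCr8), the source of the promoter sequence. Some genes of the related lists, the marker lists and the nearest rows are not reported here.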

Additional observations from a re-analysis of the deposited data

Results flagged for a closer look

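The male and female libraries differed from their controls in opposite directions for Stk39, for the Stk39 to Oxsr1 ratio and for 20 of 55 related genes with a mean of at least 1 FPKM. Of the related genes, the 2 with a difference of at least 0.3 on the log2(FPKM + 1) scale in both sexes are given. None of these differences between the sexes was tested, because each group was 1 library. Stk39 was higher with BPA in males (0.10) and lower in females (-0.25) on the log2(FPKM + 1) scale, a female minus male difference of -0.354. The log2 ratio of Stk39 to Oxsr1 changed by 0.296 in males and -0.138 in females, a difference of -0.434. Slc12a4, encoding the cotransporter KCC1, changed by 0.32 in males and -0.55 in females, a difference of -0.872. Fxyd1, encoding phospholemman, a regulator of the sodium potassium ATPase, had 0.33 in males and -0.97 in females, a difference of -1.30. It was at a low level, 2.92, 3.92, 4.14 and 1.62 FPKM in control males, BPA males, control females and BPA females, and the female control, which was the highest for Fxyd1, also had the highest sum of meningeal markers. The part of that tissue in the value was not tested.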

How the results depend on the processing

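Of 80 alternative values of fitted differences, 76 kept their direction and stayed short of the threshold, and 4 reversed. Of 40 alternative values with no adjusted p (differences within a sex and ratios), 39 kept their direction and 1 reversed. Of 20 counts of rows, 13 stayed within 1.5 times and 7 moved. Rows past an adjusted p of 0.05 for BPA were 0 as reported, 2 with sex as a replicate block, and 0 to 3 when each library was left out. Female against male gave 1 row, but 21 at a mean of at least 5 FPKM, 55 with treatment as a replicate block, 26 with new gene models summed with the gene they match, and 1 to 2 when each library was left out. None of the 4 genes was past the threshold under any of these. The cause of the moved counts was not tested.

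The reversals came from leaving out 1 library, where the lone library of an arm is assumed to vary like the pair of the other arm. The combined Stk39 difference was 0.047 without the female BPA library (range -0.192 to 0.047). Without the same library the female minus male difference was -0.038 for Slc12a2 (range -0.038 to 0.176), 0.047 for Slc12a5 (-0.444 to 0.047) and 0.063 for Stk39 (-0.187 to 0.063). The Stk39 to Oxsr1 ratio was -0.125 on the log2 scale without the male BPA library (-0.125 to 0.283). Over 10 alternatives the combined difference ran from -0.535 to -0.227 for Slc12a5 (adjusted p 0.404 to 1 by limma), from 0.091 to 0.219 for Slc12a2 and from -0.221 to -0.080 for Oxsr1. With 1 library per group and no replicate numbers in the labels, sex stood in for the block. Depth limits each gene to a counting error of the sizes given, and the spread between pups remains unmeasured.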

Other observations

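Other cell type lists held these levels beside the 4 genes, as summed FPKM in control males, BPA males, control females and BPA females. The 9 GABAergic interneuron genes summed to 262, 256, 228 and 208 FPKM, so both BPA libraries were below their own controls. The 6 cycling cell genes summed to 47.0, 41.3, 48.5 and 43.3 FPKM, with both BPA libraries below both controls. The 6 endothelium and pericyte genes summed to 116, 107, 131 and 107 FPKM. The 5 microglia genes summed to 28.6, 35.8, 37.7 and 33.4 FPKM, and the 5 red blood cell genes to 976, 814, 782 and 974 FPKM. Of 8 thalamus or hypothalamus genes 6 were listed, with sums of 13.7, 12.9, 12.6 and 10.2 FPKM.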
